A study of Mus musculus with 10 samples.

Results

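The genes named Ube2 encode ubiquitin-conjugating (E2) enzymes, and their mRNA levels were followed in mouse erythroblasts, the maturing precursors of red blood cells. A row of the raw count table was a member if its symbol started with Ube2, it was not a pseudogene, and it held at least 10 counts over the 10 libraries. Of 43 Ube2 rows among 53465 rows, 33 met this rule, 5 were pseudogenes and 5 fell under the count minimum. Membership follows the symbol and not enzyme activity. Ube2cbp, for example, encodes a protein that binds an E2 and is not itself an E2. The cells were erythroblasts isolated with a bead kit from spleens of C57BL/6 mice on day 11 after 5-FU, a drug that kills dividing blood precursors, so every group had received 5-FU. The 4 genotypes were wild type (n = 2), miR-144/451-/- (miR-144/451-null, without the microRNA cluster, n = 2), Nrf2-/- (Nrf2-null, n = 3) and Nrf2/miR-144/451-/- (double-null, n = 3). How the null alleles were made, the age of the mice and the number of mice behind a library have no entry in the labels. The p-values therefore measure the spread between these libraries, which may be technical.

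Ubiquitin is passed from an activating enzyme (E1) to an E2 and then, with the help of a ligase (E3), to a protein. The E2 often decides which kind of ubiquitin chain is built, and some E2 enzymes carry SUMO, NEDD8 or ISG15, small proteins related to ubiquitin, in its place. Maturing erythroblasts remake their protein content. Ube2o, a large enzyme that acts as both E2 and E3, marks ribosomal and other proteins for removal in reticulocytes, and Ube2h is an E2 that is abundant in erythroid cells and works with the CTLH ligase.

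Libraries held 13087827 to 15131036 counts. Mir144 was counted in each wild type and Nrf2-null library (9 to 17 counts) and stood at 0 in each library labelled as lacking the cluster. The count of Nfe2l2, the gene of Nrf2, covers the whole gene and so checks nothing about the Nrf2 deletion. All 10 erythroblast markers, such as Klf1 and Alas2, were measured, with summed levels of 60270 to 103604 normalised CPM (counts divided by library totals that were scaled with TMM factors). The list includes the globin genes Hbb-bt and Hba-a1, and globin genes held 7.07% to 12.2% of all counts, so these sums are weighted towards globin. Xist was high, and Y-linked genes near 0, in wild type replicates 1 and 3 and in double-null replicate 3, which marks these 3 as female. The remaining 7 were male. In comparisons of a single null with wild type, genotype and sex cannot be told apart. The interaction, the difference between losses of the cluster with and without Nrf2, takes in such a comparison and so carries its sex difference. These are bulk samples, in which fewer cells of a type and less RNA per cell cannot be told apart.

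Per length, Ube2l6 had the highest mean level of the family in each group but double-null, where Ube2o led. Levels between genes were compared in FPKM, the authors' counts scaled by gene length and library total. In wild type Ube2l6, the E2 for ISG15, stood at 681 ± 112 FPKM (SD, n = 2) and Ube2o at 366 ± 85.4. They were followed by Ube2c, the E2 that starts chains for the anaphase promoting complex, at 328 ± 90.2. Next came Ube2h at 143.8 ± 14.8, Ube2b, an E2 of DNA damage tolerance, at 143.6 ± 12.4, and Ube2s, which lengthens the chains that Ube2c starts, at 95.4 ± 18.5. The wild type libraries overlapped between the neighbours Ube2o and Ube2c and between Ube2h and Ube2b, so these were not ordered beyond their spread. In Nrf2-null the libraries of Ube2l6 (378 ± 31.6) and Ube2c (345 ± 56.3) overlapped, with Ube2o below both at 290.3 ± 3.80, and in double-null Ube2o (469 ± 49.1) lay above Ube2l6 (394 ± 18.5). At the other end Ube2e2 stood at 0.163 ± 0.003 FPKM and Ube2d2b at 0.086 ± 0.007. The rank of Ube2d3 (12.5 ± 1.99) rests on a length of 24499 bases that the authors' values imply, which takes in far more than 1 transcript. The implied lengths of Ube2s (5141 bases) and Ube2t (4836) are also long beside their longest annotated 3' UTRs of 141 and 216 bases. In normalised CPM, which is not scaled by length, Ube2s (487 ± 153) lay above Ube2b (302 ± 62.9) in wild type. Ranks in FPKM therefore depend on these lengths.

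**Figure D1:**
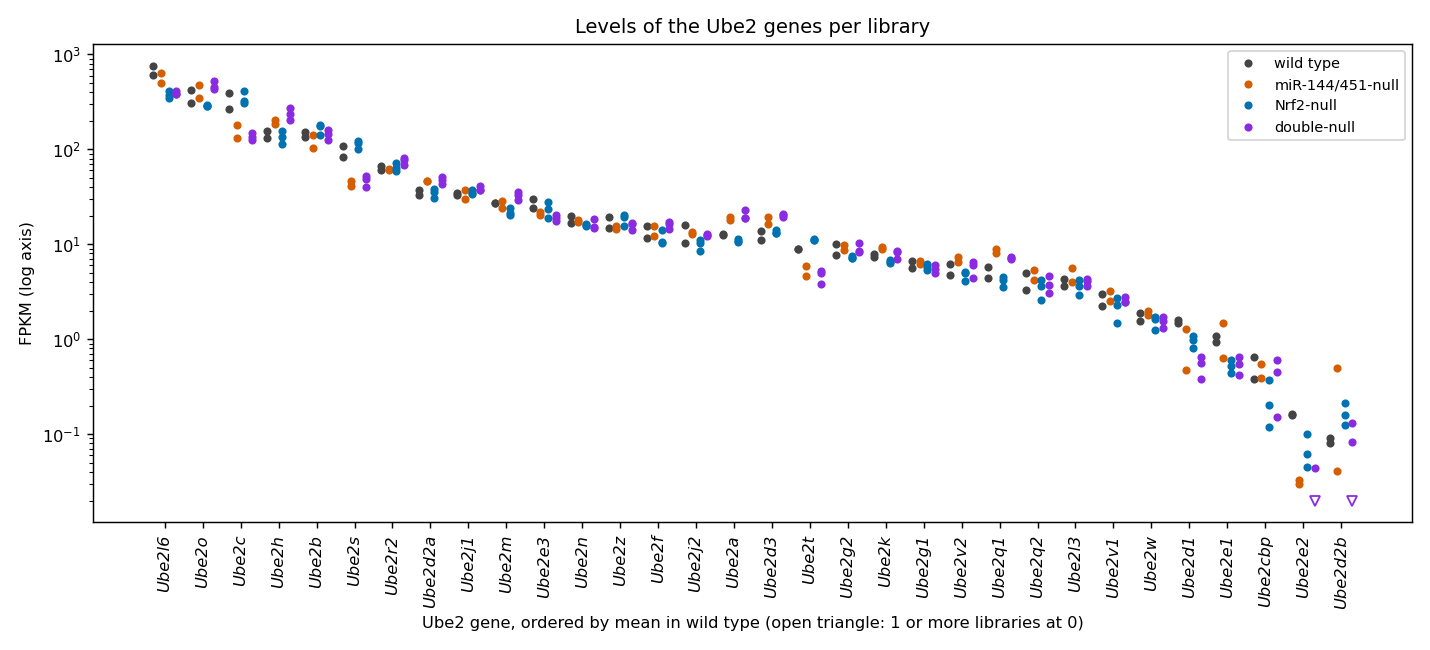
FPKM (log axis) of 32 of the 33 Ube2 genes in each library, ordered by their mean in wild type, with 1 point per library coloured by genotype. Ube2l6 stands at the top at 681 FPKM in wild type, and Ube2e2 and Ube2d2b lie under 1 FPKM in every library.

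The makeup of the family shifted with genotype. Ube2l6 gave 31.7% and 32.5% of the summed Ube2 FPKM in wild type and 31.4% and 28.8% in miR-144/451-null. In Nrf2-null it gave 19.7%, 23.4% and 21.0%, and in double-null 21.1%, 21.4% and 22.1%, so the libraries with and without Nrf2 did not overlap. Ube2h and Ube2o together gave 23.9% ± 1.23 in wild type and 24.0% ± 1.05 in Nrf2-null. They gave 32.2% ± 2.32 in miR-144/451-null and 38.6% ± 2.31 in double-null. Ube2c, Ube2s and Ube2t ran the other way, from 20.2% ± 2.17 and 26.6% ± 3.73 where the cluster was kept to 11.0% ± 3.14 in miR-144/451-null and 9.22% to 11.2% over the double-null libraries. These shares were looked at after the levels were known and carry no test. Their size depends on the gene lengths that the authors' values imply, which are long for Ube2s and Ube2t and are the same in every library. Summed over all members, the family held 2122 ± 309.8 FPKM (wild type), 1883 ± 193 (miR-144/451-null), 1769.7 ± 16.8 (Nrf2-null) and 1829.8 ± 105 (double-null).

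**Figure D2:**
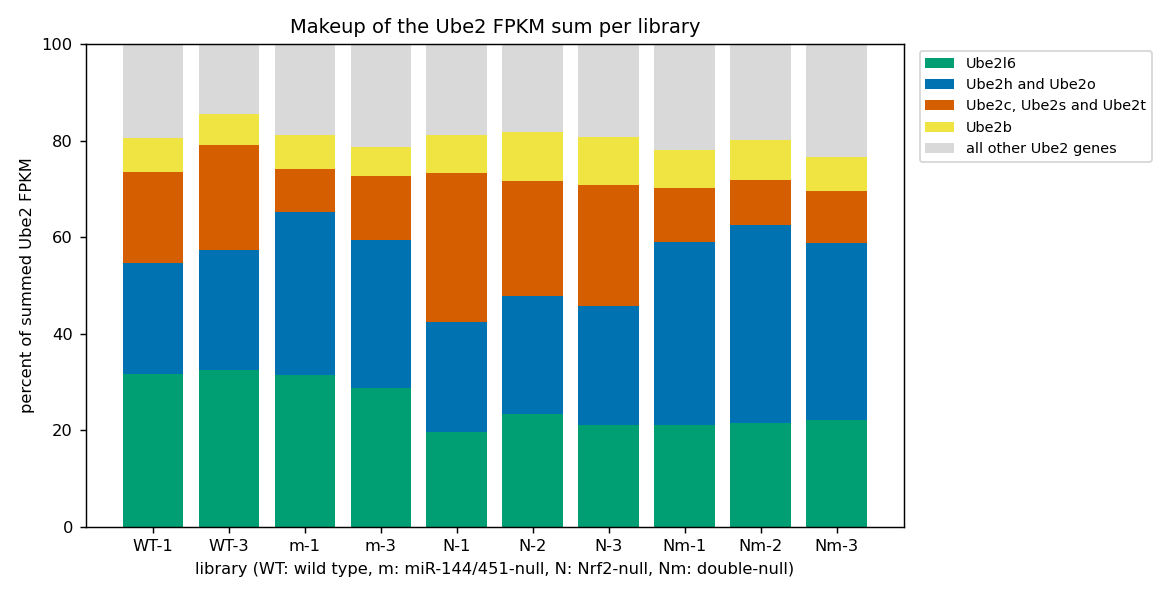
Share of the summed Ube2 FPKM (percent) taken by Ube2l6, by Ube2h with Ube2o, by Ube2c with Ube2s and Ube2t, by Ube2b and by the remaining members in each of the 10 libraries. Ube2h and Ube2o widen to 38.6% in double-null while Ube2c, Ube2s and Ube2t narrow to 10.4%.

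Loss of the miR-144/451 cluster was compared with Nrf2 present (miR-144/451-null against wild type) and with Nrf2 absent (double-null against Nrf2-null). These comparisons share no library. Of the 33 members, 32 passed the filter on low counts, and Ube2d2b did not. With Nrf2 present 3 of 32 members passed the threshold (Benjamini-Hochberg adjusted p under 0.05, edgeR), all of them lower, where 2.23% of the 14110 tested genes were called lower, 2.4% higher and 4.63% in either direction. With Nrf2 absent 10 members passed it, 7 higher and 3 lower, which is 31.2% of the members beside 27.3% of all tested genes (14.4% higher and 12.9% lower). That share is near the background. The members' median log2 fold change was -0.095 with Nrf2 present and 0.185 with Nrf2 absent, beside 0.02 over all tested genes in each. The sign was the same in both comparisons for 21 of 32 members (65.6%), beside 78.5% of all tested genes. Across the members, which are not independent replicates, the fold changes of the 2 comparisons had a Pearson r of 0.92 and a Spearman rho of 0.75, where the 5 lowest genes lie far from the rest.

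**Figure D3:**
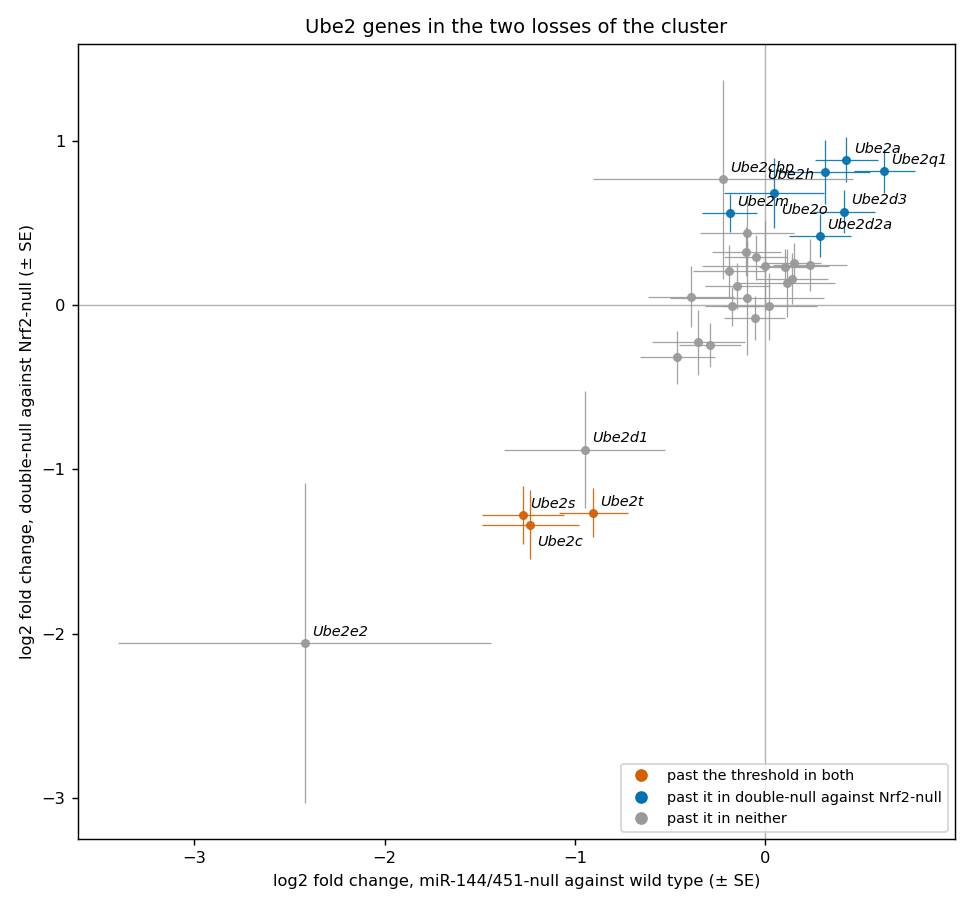
Log2 fold change (± SE) of the 32 tested Ube2 genes in double-null against Nrf2-null (vertical axis) and in miR-144/451-null against wild type (horizontal axis), coloured by the comparisons in which they passed the threshold. Ube2c, Ube2s and Ube2t sit together at the lower left with small errors, while Ube2e2 and Ube2d1, also low, carry wide errors.

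The E2 enzymes of the anaphase promoting complex, Ube2c and Ube2s, fell wherever the cluster was lost. This complex (APC/C) is the ligase that ends mitosis by marking cyclin B and securin for destruction. Ube2c read, in normalised CPM, 616 and 1088 (wild type), 328 and 395 (miR-144/451-null), 1085, 829.8 and 906 (Nrf2-null) and 422, 366 and 329 (double-null). Every library without the cluster lay below every library with it. Its log2 fold change was -1.23 ± 0.26 (SE) with Nrf2 present (edgeR adjusted p = 0.0225) and -1.34 ± 0.21 with Nrf2 absent (adjusted p = 0.00114). Ube2s read, in normalised CPM, 379 and 596 (wild type), 202 and 201 (miR-144/451-null), 645, 537 and 654 (Nrf2-null) and 269, 217 and 270.0 (double-null). Again no library without the cluster reached the lowest library with it. The fold changes of Ube2s were -1.27 ± 0.22 (edgeR adjusted p = 0.00994) and -1.28 ± 0.18 (adjusted p = 5.47e-04). With Nrf2 present, the Ube2c call ended without wild type replicate 3 (-0.76, edgeR adjusted p = 0.172), miR-144/451-null replicate 1 (-1.10, 0.149) or miR-144/451-null replicate 3 (-1.35, 0.0582), and that of Ube2s without wild type replicate 3 (-0.91, 0.0802) or miR-144/451-null replicate 1 (-1.27, 0.0743). With a term for sex, estimated from double-null replicate 3 against its replicates 1 and 2, they stood at -1.49 (adjusted p = 0.254) and -1.12 (adjusted p = 0.309).

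Ube2c and Ube2t fell together with Ube2s, and their promoters are shown because promoters of mitotic genes commonly hold CCAAT boxes, bound by NF-Y, and a CHR element, bound by cell cycle complexes. The sequences are those of RefSeq on GRCm38.p6, from 250 bases before to 50 after the annotated start, 5′ to 3′ on the gene's strand. Capitals mark CCAAT and TTTGAA (CHR) on either strand. The windows are chr2:164769679-164769978 (plus strand) for Ube2c, chr1:134962315-134962614 (plus strand) for Ube2t and chr7:4812291-4812590 (minus strand) for Ube2s.
Ube2c: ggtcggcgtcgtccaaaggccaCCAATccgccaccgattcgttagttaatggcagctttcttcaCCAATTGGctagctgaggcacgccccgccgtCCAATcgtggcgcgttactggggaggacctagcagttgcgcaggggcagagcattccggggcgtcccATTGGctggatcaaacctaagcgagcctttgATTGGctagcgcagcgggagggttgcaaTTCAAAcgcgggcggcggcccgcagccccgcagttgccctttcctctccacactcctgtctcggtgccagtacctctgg
Ube2t: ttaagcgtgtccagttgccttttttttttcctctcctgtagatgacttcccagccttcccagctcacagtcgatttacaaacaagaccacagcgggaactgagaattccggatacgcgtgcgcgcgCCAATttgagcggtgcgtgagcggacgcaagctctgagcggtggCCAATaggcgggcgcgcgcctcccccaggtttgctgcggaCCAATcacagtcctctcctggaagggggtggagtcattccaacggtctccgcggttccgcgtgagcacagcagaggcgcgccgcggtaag
Ube2s: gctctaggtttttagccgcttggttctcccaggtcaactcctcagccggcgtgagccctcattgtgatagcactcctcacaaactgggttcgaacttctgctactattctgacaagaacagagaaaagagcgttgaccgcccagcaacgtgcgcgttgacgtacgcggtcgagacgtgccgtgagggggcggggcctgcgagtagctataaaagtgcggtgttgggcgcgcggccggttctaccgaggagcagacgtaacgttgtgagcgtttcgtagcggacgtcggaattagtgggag
The Ube2c window held 6 matches to CCAAT, of which a pair overlap on opposite strands, and 1 match to TTTGAA that starts 29 bases before the annotated start. In the Ube2t window there were 3 matches to CCAAT and none to TTTGAA, and the Ube2s window held neither. Over the 32851 promoter windows of the RefSeq table, 37.4% held CCAAT and 17.9% held TTTGAA. The 26 members with a promoter in the table had 37 windows. Of these windows 7 held CCAAT and 4 held TTTGAA, each in a different member. A match describes the letters of the window and shows no binding.

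Of 17 genes of the APC/C, its activators and its inhibitor (Fbxo5), 2 fell with Nrf2 present, where 2.23% of all tested genes were called lower. With Nrf2 absent 3 fell and 2 rose, where 12.9% and 14.4% of all tested genes did. The median log2 fold changes were 0.00 with Nrf2 present and -0.01 with Nrf2 absent, beside 0.02 over all tested genes. Fbxo5, which encodes the APC/C inhibitor Emi1, read, in normalised CPM, 189 and 197 (wild type), 98.4 and 65.1 (miR-144/451-null), 289.7, 270.4 and 427 (Nrf2-null) and 84.1, 69.1 and 114 (double-null). It fell by 1.24 ± 0.29 on the log2 scale with Nrf2 present (edgeR adjusted p = 0.0372) and by 1.88 ± 0.24 with Nrf2 absent (adjusted p = 3.91e-04). Fzr1, an activator of the APC/C in late mitosis and G1 also known as Cdh1, fell by 0.98 ± 0.23 (adjusted p = 0.0393) and 0.75 ± 0.19 (adjusted p = 0.0144). With Nrf2 present, the Fbxo5 call ended when any 1 of 6 libraries was left out and the Fzr1 call for 7, wild type replicate 3 and both miR-144/451-null replicates among them in each case. Both calls also ended with a term for sex, and that of Fzr1 with the replicate block. Without Nrf2, the Fzr1 call ended without double-null replicate 3 and with a term for sex. The core subunit Cdc23 fell by 0.37 ± 0.12 with Nrf2 absent (adjusted p = 0.0450), while Cdc26 (0.40 ± 0.13) and Cdc16 (0.39 ± 0.13) rose. Of the 18 alternatives tried, 12 ended the call of Cdc26, 14 that of Cdc16 and 13 that of Cdc23.

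Ube2t, the E2 that places ubiquitin on FANCD2 and FANCI in the repair of DNA crosslinks, fell as well. It read, in normalised CPM, 39.0 and 46.5 (wild type), 21.2 and 24.4 (miR-144/451-null), 54.4, 57.4 and 58.1 (Nrf2-null) and 26.2, 19.1 and 25.4 (double-null). The groups with and without the cluster did not overlap. Its log2 fold change was -0.90 ± 0.18 with Nrf2 present (edgeR adjusted p = 0.0198) and -1.27 ± 0.15 with Nrf2 absent (adjusted p = 2.26e-04). Of the 10 Fanconi genes listed around Ube2t, Fancl, the ligase that works with it, fell by 0.95 ± 0.23 with Nrf2 present (adjusted p = 0.0422). With Nrf2 absent 3 fell and none rose, where 12.9% of all tested genes fell and 14.4% rose. The list median there was -0.28, beside 0.02 over all tested genes. Those that fell were Fancl (-1.24 ± 0.19, adjusted p = 9.73e-04) and the targets Fancd2 (-0.79 ± 0.14, adjusted p = 0.00193) and Fanci (-0.59 ± 0.14, adjusted p = 0.0108). With Nrf2 present, the Ube2t call ended without wild type replicate 1 (-1.03, edgeR adjusted p = 0.0566), wild type replicate 3 (-0.76, 0.164), miR-144/451-null replicate 1 (-0.80, 0.137) or miR-144/451-null replicate 3 (-0.98, 0.0646), and with a term for sex (-0.74, 0.426). The Fancl call in that comparison ended without any 1 of 8 libraries, with a term for sex, with the replicate block and without scaling factors.

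Beside these falls, 2 of 10 erythroblast markers fell with Nrf2 present and 4 with Nrf2 absent, where 2.23% and 12.9% of all tested genes did. None of these markers rose. Summed, these markers stood at 81077 to 96930 normalised CPM in Nrf2-null and 85130 to 103604 in double-null, and at 66022 to 93590 in wild type and 60270 to 67891 in miR-144/451-null. The 6 B cell markers summed to 498 to 831 in wild type and 182 to 398 in miR-144/451-null, where none passed the threshold, and to 356 to 451 in Nrf2-null and 83.6 to 146 in double-null, where all 6 fell. The part of these markers in the falls of Ube2c, Ube2s and Ube2t was not tested.

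The erythroid E2 genes Ube2h and Ube2o were higher in double-null than in Nrf2-null. Ube2h read, in normalised CPM, 572 and 788 (wild type), 937 and 753 (miR-144/451-null), 557, 666 and 806 (Nrf2-null) and 1229.99, 1364 and 969 (double-null). All 3 double-null libraries lay above every other library, and the miR-144/451-null libraries overlapped those of wild type. The log2 fold change was 0.81 ± 0.20 with Nrf2 absent (edgeR adjusted p = 0.0110) and 0.31 ± 0.24 with Nrf2 present (adjusted p = 0.552). Ube2o read, in normalised CPM, 1450.1 and 2409 (wild type), 2419 and 1560.4 (miR-144/451-null), 1552, 1622 and 1659.8 (Nrf2-null) and 2589, 2899 and 2278 (double-null). The wild type and miR-144/451-null pairs each spread over nearly the same range, while the 3 Nrf2-null libraries lay close together and below all double-null libraries. Ube2o rose by 0.68 ± 0.21 on the log2 scale with Nrf2 absent (edgeR adjusted p = 0.0359) and had a log2 fold change of 0.04 ± 0.26 with Nrf2 present (adjusted p = 0.959). The difference between the 2 losses of the cluster did not pass the threshold for either gene (interaction 0.50 ± 0.31 and 0.64 ± 0.34, edgeR adjusted p = 0.999 each).

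Without Nrf2-null replicate 1 the Ube2h rise was 0.69 and missed the threshold (edgeR adjusted p = 0.0516). The Ube2o call ended without any 1 of Nrf2-null replicates 1 (0.66, adjusted p = 0.104), 2 (0.69, 0.0835) and 3 (0.705, 0.0796) or double-null replicates 1 (0.68, 0.0764) and 2 (0.60, 0.0981), with a term for sex (0.77, 0.0506) and with the replicate block (0.68, 0.0672).

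Beside these rises, the 4 megakaryocyte markers summed to 35.8 to 57.1 normalised CPM in Nrf2-null and 123 to 165 in double-null, where 1 rose and 1 fell. They summed to 54.2 to 80.0 in wild type and 104 to 154 in miR-144/451-null, where none passed the threshold. The 6 neutrophil markers summed to 83.2 to 668 in Nrf2-null and 580 to 666 in double-null. In wild type they summed to 231 to 280 and in miR-144/451-null to 194 to 563, and none passed the threshold in either loss of the cluster. The part of the megakaryocyte, neutrophil and B cell markers in the rises with Nrf2 absent was not tested.

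Of the 11 genes of the CTLH ligase, with which Ube2h works, none passed the threshold with Nrf2 present. With Nrf2 absent 3 fell and none rose (list median 0.01), where 12.9% of all tested genes fell and 14.4% rose. With 27.3% of all tested genes called in either direction, the count of this list is near the background. The fallen genes were Gid8 (-0.69 ± 0.13, edgeR adjusted p = 0.00351), the substrate receptor gene Gid4 (-0.68 ± 0.15, adjusted p = 0.00766) and Ypel5 (-0.83 ± 0.26, adjusted p = 0.0402), whose call ended under 7 alternatives. Ube2h rose while these genes fell and the remaining 8 did not pass the threshold. Among these 8, Wdr26 was higher (0.50 ± 0.18, edgeR adjusted p = 0.0579), as were Ranbp9 (0.33 ± 0.17) and Maea (0.20 ± 0.11). Armc8 was lower (-0.30 ± 0.12). For each of them the double-null and Nrf2-null libraries did not overlap. Gid4 stood at 26.8 ± 0.18 normalised CPM in wild type, 41.6 ± 8.09 in Nrf2-null and 26.0 ± 1.45 in double-null. Its double-null mean was thus near that of wild type, unlike those of Gid8 (155 against 233) and Ypel5 (143 against 267).

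**Figure D4:**
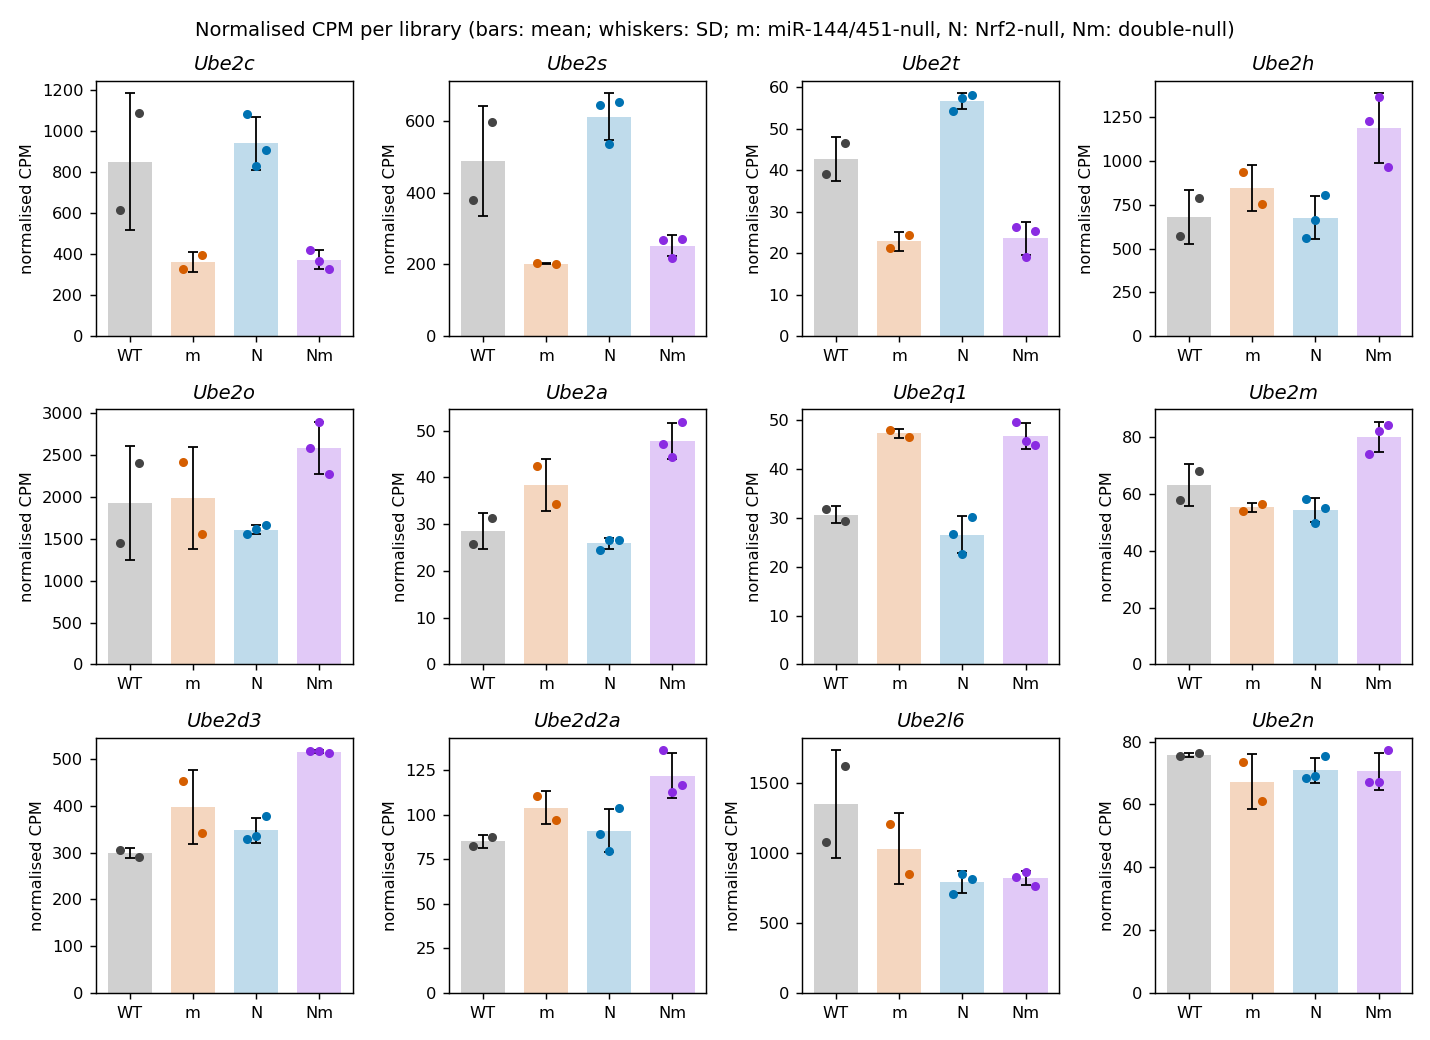
Normalised CPM of 12 Ube2 genes in each library (points), with the group mean (bars from 0) and SD (whiskers), for wild type (WT), miR-144/451-null (m), Nrf2-null (N) and double-null (Nm). Ube2c, Ube2s and Ube2t are lower in both groups without the cluster, and Ube2h, Ube2m and Ube2d3 stand highest in double-null.

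A further 5 E2 genes rose in double-null against Nrf2-null. Ube2a, the X-linked partner of the ligase Rad18 in DNA damage tolerance, stood at 24.5, 26.7 and 26.5 normalised CPM in Nrf2-null and 47.1, 44.5 and 51.9 in double-null, a log2 fold change of 0.88 ± 0.14 (edgeR adjusted p = 0.00107). It stood at 25.8 and 31.4 in wild type and 42.4 and 34.4 in miR-144/451-null, where its change missed the threshold (0.43 ± 0.17, adjusted p = 0.195). Its close relative Ube2b did not pass the threshold in either loss of the cluster (-0.35 ± 0.24 and -0.23 ± 0.20, adjusted p = 0.506 and 0.425). Ube2q1, a less studied E2, stood at 26.8, 22.6 and 30.2 normalised CPM in Nrf2-null and 49.7, 45.7 and 44.8 in double-null (0.82 ± 0.13, adjusted p = 0.00140). It was also higher in both miR-144/451-null libraries (47.9 and 46.6) than in wild type (31.9 and 29.4), at the edge of the threshold (0.62 ± 0.16, adjusted p = 0.0526). DESeq2 (0.61, adjusted p = 0.0419), the fit without scaling factors (0.74, 0.0433) and the fit without Nrf2-null replicate 3 (0.62, 0.0407) placed that rise past it. The other 15 alternatives did not, among them the term for sex (0.54, adjusted p = 0.490), and over the fits with 1 library left out the adjusted p ran from 0.0407 to 0.287 (the latter without wild type replicate 3).

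Ube2m, the main E2 for NEDD8, a modifier that switches on cullin ligases, read, in normalised CPM, 57.8 and 68.2 (wild type), 54.1 and 56.4 (miR-144/451-null), 58.1, 49.8 and 55.2 (Nrf2-null) and 74.2, 82.1 and 84.3 (double-null). All 3 double-null libraries lay above the other 7. Its log2 fold change was 0.56 ± 0.12 with Nrf2 absent (edgeR adjusted p = 0.00558) and -0.19 ± 0.14 with Nrf2 present (adjusted p = 0.557). The interaction, 0.75 ± 0.19, had an unadjusted p of 0.00198 and an adjusted p of 0.728. Ube2d3, a broadly used E2, stood at 329, 336 and 379 normalised CPM in Nrf2-null and 519, 518 and 513 in double-null (0.57 ± 0.13, edgeR adjusted p = 0.00948). In wild type it stood at 306 and 291, and in miR-144/451-null at 453 and 342 (0.41 ± 0.16, adjusted p = 0.197). Its relative Ube2d2a, which is outside the rule for named genes and was added after its values were seen, rose by 0.42 ± 0.13 (adjusted p = 0.0354). That call ended without wild type replicate 1 (0.42), Nrf2-null replicate 1 (0.41) or 2 (0.34), or double-null replicate 1 (0.33) or 3 (0.47), with a term for sex (0.45), with DESeq2's size factors (0.40) and with DESeq2 (0.40). Without double-null replicate 3, the female library, Ube2a, Ube2q1, Ube2m, Ube2d3, Ube2h and Ube2o remained past the threshold.

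To see which members could pair with the deleted microRNAs, the 3' UTRs were searched for the match to bases 2 to 8, the seed. The mature sequences are from RefSeq (GRCm38.p6), with the seed in capitals.
miR-144-3p: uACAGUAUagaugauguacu
miR-451a: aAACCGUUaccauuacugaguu
In the longest annotated 3' UTR (GENCODE M21), 8 of 32 tested members held the miR-144-3p match ATACTGT, and 13.3% of 11710 tested genes did. None of the 32 held the miR-451a match, which 1.94% of tested genes held. The match to the other arm, miR-144-5p, was held by 3 members (Ube2g1, Ube2k and Ube2l3) and by 5.71% of tested genes, and none of the 3 passed the threshold in either loss of the cluster. The 8 members were Ube2d2a, Ube2d3, Ube2f, Ube2g1, Ube2h, Ube2n, Ube2v2 and Ube2w. Their 3' UTRs ran from 1487 (Ube2w) to 4982 bases (Ube2f), and those of the other 24 from 141 (Ube2s) to 4039 (Ube2k). A longer 3' UTR has more places for a match, and neither these shares nor the split of members was matched for length. In double-null against Nrf2-null 3 of them rose (Ube2d2a, Ube2d3 and Ube2h) and none fell, with a median log2 fold change of 0.33. Of the other 24 members 4 rose and 3 fell (median 0.15). Over all tested genes 14.4% were called higher and 12.9% lower there. The Ube2d2a call ended under 8 alternatives. The share called among all tested genes that hold the match was not taken, so these counts were not tested against it. With Nrf2 present none of the 8 passed the threshold (median 0.13, beside -0.17 for the other 24). The sites of Ube2h and Ube2d3 are shown as the most abundant of the 8 in counts, with the match in capitals.
Ube2h: atgtatttttttcaATACTGTataaaaat
Ube2d3, first site: taatctatcttccaATACTGTttaatata
Ube2d3, second site: agctgtttttgtatATACTGTtgggattt
A match shows no regulation, and Ube2n and Ube2w, which also hold one, had log2 fold changes of -0.01 ± 0.12 and -0.01 ± 0.21 with Nrf2 absent.

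The remaining 22 tested members did not pass the threshold in either loss of the cluster. Among them was Ube2n, which builds Lys63 chains with Ube2v1 or Ube2v2, with mean normalised CPM of 75.9 ± 0.61 (wild type), 67.3 ± 8.63 (miR-144/451-null), 70.9 ± 3.93 (Nrf2-null) and 70.6 ± 5.84 (double-null). The 4 E2 genes of protein quality control at the endoplasmic reticulum (Ube2j1, Ube2j2, Ube2g1 and Ube2g2) had log2 fold changes of -0.15 to -0.05 with Nrf2 present and -0.08 to 0.33 with Nrf2 absent. The lowest fold changes belonged to scarce transcripts. Ube2e2 held 10 to 11 counts per wild type library, 2 in each miR-144/451-null library, 3 to 7 in Nrf2-null and 0 to 3 in double-null. Its fold changes, -2.42 ± 0.98 and -2.06 ± 0.97, missed the threshold (edgeR adjusted p = 0.210 and 0.139). Ube2d1 missed it as well (-0.95 ± 0.42 and -0.88 ± 0.36, adjusted p = 0.259 and 0.0892). Reads of Ube2v1 are uncertain. Of its 31-mers 59.9% occur in other genes, mostly in the overlapping gene Gm20431, which held 0 counts in every library. For the genes called here that share was at most 10.4% (Ube2h). Ube2c shares 22.8% of its exon bases with Tnnc2 on the opposite strand, and Tnnc2 held 0 or 1 count in every library. Ube2s shares 3.56% with Rpl28 on the opposite strand, which held 3269 to 7231 counts.

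Loss of Nrf2 was examined with the cluster present (Nrf2-null against wild type) and absent (double-null against miR-144/451-null). No Ube2 gene passed edgeR's threshold in either, where 0.191% (0.128% higher, 0.0638% lower) and 0.0638% (0.0496% higher, 0.0142% lower) of all tested genes did. At an unadjusted p under 0.05 there were 3 and 5 members, for which no share over all tested genes was taken. DESeq2 called 0 and 1 members, in fits that called 128 and 168 of all tested genes in place of edgeR's 27 and 9. The smallest p in the first comparison belonged to Ube2l6. It read, in normalised CPM, 1078 and 1622 (wild type), 1209 and 851 (miR-144/451-null), 706, 853 and 817 (Nrf2-null) and 831, 867 and 764 (double-null). Every Nrf2-null library lay below both wild type libraries, as for 20.1% of all tested genes, whereas double-null and miR-144/451-null overlapped. Its log2 fold change was -0.77 ± 0.20 in Nrf2-null against wild type (unadjusted p = 0.00295, edgeR adjusted p = 0.289) and -0.33 ± 0.20 in double-null against miR-144/451-null (adjusted p = 0.571). It passed the threshold in the first comparison without scaling factors (-0.85, adjusted p = 0.0428) and without the filter on low counts (-0.75, adjusted p = 0.00288), a fit that called 716 genes in place of 27. With 1 library left out it ran from -1.01 without wild type replicate 1 to -0.447 without wild type replicate 3 (adjusted p of 0.187 to 0.63 over these fits), and with a term for sex it was -0.92 (adjusted p = 0.839). In the other comparison DESeq2 called Ube2m higher (0.56, adjusted p = 0.0463), where edgeR gave 0.54 ± 0.13 (adjusted p = 0.225).

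The ISG15 pathway, in which Ube2l6 carries the interferon-induced modifier ISG15, is given beside it. None of its 5 listed genes passed the threshold in Nrf2-null against wild type (list median 0.20). In double-null against Nrf2-null 4 fell (list median -1.48), where 12.9% of all tested genes did. Ube2l6 had a log2 fold change of 0.05 ± 0.18 there (edgeR adjusted p = 0.863). Isg15 itself read, in normalised CPM, 515 and 824 (wild type), 687 and 180.5 (miR-144/451-null), 617, 539 and 528 (Nrf2-null) and 155, 278 and 169 (double-null). It fell by 1.48 ± 0.44 on the log2 scale with Nrf2 absent (edgeR adjusted p = 0.0345), was named after its values were seen, and lost its call under 7 of 18 alternatives. Usp18, which removes ISG15 from proteins, fell by 3.02 ± 0.53 (adjusted p = 0.00340), and the ligase genes Herc6 and Trim25 fell by 1.59 ± 0.33 and 1.09 ± 0.21. The E1 gene Uba7 was at 505 to 1029 normalised CPM over the 10 libraries and did not pass the threshold. All 6 B cell markers fell in the same comparison, from summed levels of 356 to 451 normalised CPM in Nrf2-null to 83.6 to 146 in double-null, and their part in these falls was not tested. Macrophage markers summed to 283 to 996 in Nrf2-null (996 in replicate 3) and 75.0 to 333 in double-null, and none passed the threshold.

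The interaction asks whether loss of the cluster acted differently with and without Nrf2. It takes in the comparison of the single null lacking the cluster with wild type, where genotype and sex cannot be told apart. A difference by sex is therefore part of the interaction. No Ube2 gene passed edgeR's threshold for it, nor with DESeq2, where 0.0638% of all tested genes did with edgeR (0.0283% higher, 0.0354% lower), and 1 member (Ube2m) had an unadjusted p under 0.05. For Ube2c and Ube2s, which fell in both losses of the cluster, it was -0.10 ± 0.33 and -0.01 ± 0.28, and for Ube2t -0.36 ± 0.23.

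The genes that work around the E2 enzymes were compared in double-null against Nrf2-null as lists, with no test of a list. Over all tested genes 14.4% were called higher and 12.9% lower there, the background for each list count below. Of the 9 E1 genes 3 rose and none fell (median 0.31), namely Uba1, the main and X-linked ubiquitin E1 (0.98 ± 0.23, edgeR adjusted p = 0.0111), Uba2 of the SUMO E1 (0.58 ± 0.14) and the autophagy E1 gene Atg7 (0.55 ± 0.17). The Atg7 call ended under 9 alternatives. Among 11 genes for ubiquitin and its relatives 3 rose and 2 fell (median 0.45). Sumo2 fell by 0.56 ± 0.12 (edgeR adjusted p = 0.00537). The modifier gene Ufm1 rose by 0.63 ± 0.13. Of 8 genes with an E2 fold that are not named Ube2, Atg3 (0.78 ± 0.17) and Ufc1 (0.59 ± 0.17), the E2 enzymes for LC3 and UFM1, rose (Ufc1 lost its call under 7 alternatives), and Cdc34, which serves SCF ligases, fell (-0.52 ± 0.12, adjusted p = 0.00903).

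In the NEDD8 list around Ube2m, 4 of 11 genes rose and none fell (median 0.31), led by Nedd8 (0.81 ± 0.14, edgeR adjusted p = 0.00226), Dcun1d5 (0.90 ± 0.17, adjusted p = 0.00309) and the RING subunit gene Rbx1 (0.56 ± 0.12, adjusted p = 0.00715). The SUMO list was mixed, with 5 of 16 genes higher and 3 lower (median 0.28). Besides Uba2, the ligase gene Pias2 (0.81 ± 0.14) and the protease gene Senp6 (0.55 ± 0.13) rose, while Senp2 (-0.62 ± 0.14) and Pias1 (-0.46 ± 0.13, lost under 6 alternatives) fell. Among 8 ligases that work with Ube2n, Ube2a and Ube2b, Traf6 rose with Nrf2 absent (0.91 ± 0.16, adjusted p = 0.00224) and with Nrf2 present (1.00 ± 0.20, adjusted p = 0.0188). Rnf168 (-0.89 ± 0.23) and Rad18 (-0.40 ± 0.11, adjusted p = 0.0218), the partner of Ube2a, fell with Nrf2 absent. The Rad18 call ended under 6 alternatives and that of Rnf168 without Nrf2-null replicate 3. The Traf6 call with Nrf2 present ended without wild type replicate 1 or 3 or miR-144/451-null replicate 1, and with a term for sex.

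**Figure D5:**
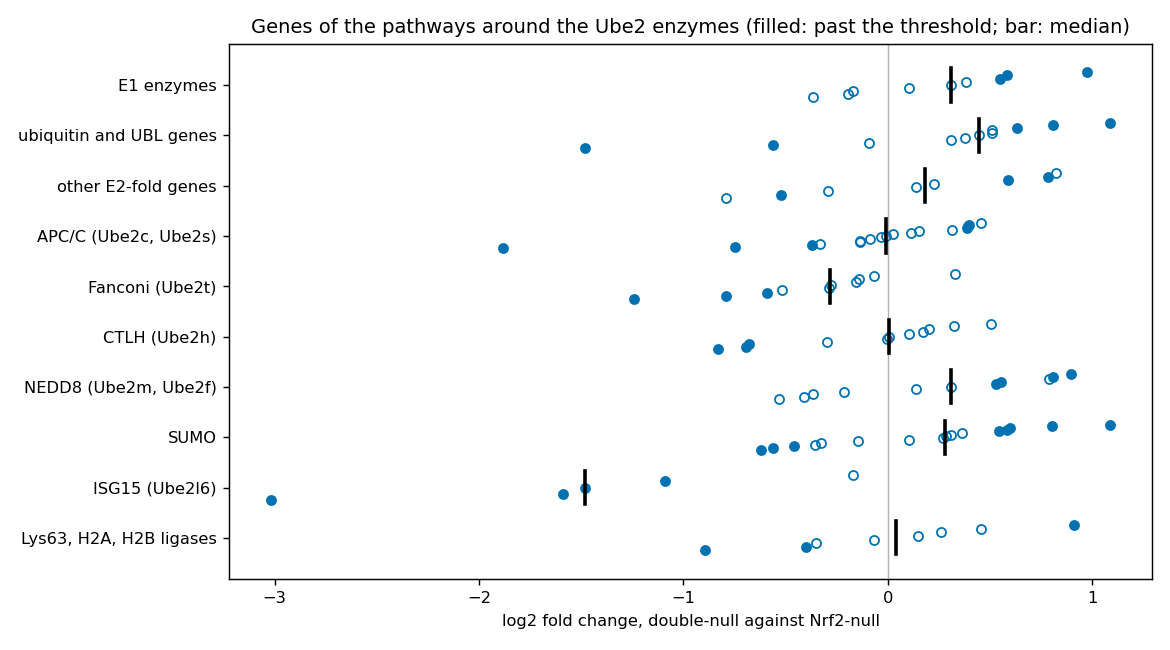
Log2 fold change in double-null against Nrf2-null of each tested gene in 10 lists around the Ube2 enzymes (1 circle per gene, filled where it passed the threshold) with the list median as a bar. The ISG15 list lies lowest, with a median of -1.48, and the APC/C list is centred near 0 with Fbxo5 far to the left.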

How the data were processed

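Gene expression was measured by RNA sequencing in 10 libraries. Deposited by the authors were raw counts (53465 gene rows) and FPKM values per library. The deposited FPKM values equalled count / length / library total to within 0.1% in all 196970 nonzero values. Tools listed in the submitters' processing notes, without a role, are TopHat2, HISAT2 2.1.0, Bowtie2 2.2.3 and CASAVA, with mm9 as the genome build. The sources used here name no counting tool or strand setting, so reads of overlapping genes were not told apart. Symbols and gene types came from GENCODE M21 (GRCm38), which matched 99.6% of identifiers. No mm9 coordinates are printed.

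All counts entered 1 fit in R 4.3.3 with edgeR 4.0.16 (filterByExpr, TMM factors, a coefficient per genotype, robust quasi-likelihood test, two-sided), with 14110 genes tested, 6 residual degrees of freedom and Benjamini-Hochberg adjustment over all of them. The standard error is the fold change divided by the square root of its F. FPKM served to compare levels between genes. The fit was tested on simulated data. Replicates differed by more than sampling noise (chi-square divided by its degrees of freedom, 15.5 to 27.3). Alternatives were DESeq2 1.42.0, other scalings and filters, globin genes removed, a term for sex, the replicate block and each library left out.

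The members, the gene lists and the rule for named genes were chosen with earlier results of these data known. Members named were 11 chosen by role and up to 4 per direction and comparison with the smallest p. From each gene list, up to 3 genes per direction were named. Values of some genes are not reported here.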

Additional observations from a re-analysis of the deposited data

How the results depend on the processing

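Of 90 member counts under the alternatives, 83 stayed within 1.5 times the reported count. These include Nrf2-null against wild type, double-null against miR-144/451-null and the interaction, where a reported 0 mostly stayed 0. That share therefore says little about how stable the calls are. For miR-144/451-null against wild type, 3 calls became 0 with a term for sex, and 0 to 4 when 1 library was left out (0 without wild type replicate 3, also 0 without replicate 1 of miR-144/451-null, and 1 without its replicate 3). In Nrf2-null against wild type the 0 calls became 1 without scaling factors and 1 without the filter on low counts (Ube2l6 both times). In double-null against miR-144/451-null they became 1 with DESeq2 (Ube2m). In double-null against Nrf2-null the 10 calls ranged from 7 to 11 with 1 library left out and from 8 to 11 otherwise. The interaction gave 0 calls throughout. None of the named members' calls changed sign. Over all genes, calls in miR-144/451-null against wild type fell from 653 to 1 with the term for sex and 40 without wild type replicate 3. Without scaling factors, the median of all genes in that comparison moved from 0.02 to 0.15, with 497 genes higher and 247 lower in place of 338 and 315. It moved from -0.02 to -0.12 in Nrf2-null against wild type and from -0.02 to -0.24 in double-null against miR-144/451-null, and from 0.01 to -0.105 for the interaction, so changes in those fits are relative to that shift. Their few calls split 14 higher and 11 lower, 4 and 2, and 4 and 8, in place of 18 and 9, 7 and 2, and 4 and 5.

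With the replicate block, 3 and 9 members were called in the 2 losses of the cluster, and 0 in the other comparisons. The labels do not say whether replicate numbers pair the libraries. Deviations of same-numbered libraries from their group means correlated at -0.06 to 0.00 over all tested genes. With 2 or 3 libraries per group, this cannot exclude a pairing that touches some of the genes. The cause of the changes above was not tested. Counting error limits Ube2e2, Ube2d2b and Ube2cbp, which held at most 17 counts in any library.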
